A study of Homo sapiens with 4 samples.

Results

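The p53 target genes described here are 10 genes, characterised by the H3K27ac peaks at their promoters and within 50 kb of their gene bodies in 4 cancer cell lines. The 10 genes, CDKN1A, MDM2, PHLDA3, SESN1, RRM2B, GDF15, BBC3, BAX, FAS and TNFRSF10B, were listed by name as known targets and are compared with the 20163 protein-coding genes of GENCODE on hg19. A promoter peak was any peak that overlapped the 1 kb on either side of a transcript start of the gene by at least 1 bp. A distal peak was any other peak that overlapped the gene body or the 50 kb on either side of it. All 10 genes were found in the annotation and none was left out.

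The study profiled H3K27ac, an acetylation of histone H3 found at active promoters and enhancers, by ChIP-seq with the antibody ab4729. COLO-205 is an established colon cancer line grown in RPMI with FBS, and DU-145 is an established prostate cancer line grown in Eagle minimal essential medium with FBS. OVCAR-3 and SKOV-3 are established ovarian cancer lines, the former grown in RPMI 1640 medium with FBS and the latter in McCoy’s 5a minimal essential medium with FBS. The labels name no treatment for any line, and neither binding of p53 nor transcript levels were analysed here. There was 1 library per line, so a difference between lines has no replicate check, no test was made between lines, and line, medium and library cannot be told apart.

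p53 is a transcription factor that is stabilised after DNA damage and other stress and binds a paired consensus element in the promoters and introns of its targets. Its targets stop the cell cycle, supply nucleotides for repair, limit oxidative stress and start apoptosis, and some of them act back on p53 itself. H3K27ac at a target shows an acetylated promoter or enhancer, and does not by itself show that p53 is bound there.

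The number of peaks was 85576 for COLO-205, 75468 for DU-145, 76093 for OVCAR-3 and 14001 for SKOV-3, from an estimated 22400000 to 36000000 tags per library. The fold enrichment of a peak is the tag pileup over the local background at its summit as the authors' peak caller gave it, and it is not scaled between libraries. The pileup is the number of tags stacked at the summit, and its 95% interval covers counting error only. To place a gene within its own list, its strongest promoter peak was ranked by fold enrichment among all protein-coding genes with a promoter peak there, and the rank is given as a percentile. The lowest pileup of any listed peak was between 11 and 14 tags, so that weaker acetylation was not detectable at this depth. Where 4 values follow each other without names, they are in the order COLO-205, DU-145, OVCAR-3 and then SKOV-3. The colon markers CDX2, VIL1 and HNF4A had a promoter peak in COLO-205 alone, whereas CDX1 and CDH17 had none in any list. Of the 4 ovarian markers PAX8, MUC16, WT1 and MECOM, all 4 had a promoter peak in OVCAR-3, but 3 had one in COLO-205, 3 in DU-145 and 2 in SKOV-3, where MUC16 and WT1 had none. No promoter peak of the prostate markers KLK3 and HOXB13 was found in DU-145.

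Promoter peaks were found at 9 of the 10 genes in DU-145, 8 in OVCAR-3, 6 in COLO-205 and 5 in SKOV-3. Over all protein-coding genes the share with a promoter peak was 59.8% in DU-145, 60.5% in OVCAR-3, 51.1% in COLO-205 and 31.6% in SKOV-3. The share of the 10 genes was above that of all genes in each list as deposited, but in COLO-205 and SKOV-3 few genes made up the margin. With the canonical start alone, a setting chosen after seeing the data, it was 5 genes against 44.7% in COLO-205 and 4 against 29% in SKOV-3. In COLO-205 the share was not above that of all genes under stricter settings. There 2 of the 10 genes stood against 31.7% of all genes at a −log10 q of at least 10, and 2 against 21.8% among the 14001 most significant peaks. In OVCAR-3 the latter setting left 4 of the 10 genes against 37.9%. The 5 genes MDM2, SESN1, BBC3, BAX and TNFRSF10B had a promoter peak in all 4 lists, against 25.2% of all genes. PHLDA3, RRM2B and FAS had one in DU-145 and OVCAR-3 and in neither other list, a pattern held by 9.98% of all genes. CDKN1A had one in DU-145 alone, as did 4.35% of all genes, and GDF15 had one in COLO-205 alone, as did 6.16%. No gene of the 10 was without a promoter peak in every list, where 25% of all genes were.

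The strongest promoter peaks of these genes mostly lay below the median of the strongest promoter peaks of all genes in the same list. The strongest promoter peak of each gene ranged in fold enrichment from 3.14 to 6.54 in COLO-205, from 2.80 to 6.87 in DU-145, from 3.04 to 11.7 in OVCAR-3 and from 3.68 to 6.82 in SKOV-3. The median over all genes with a promoter peak was 4.52, 4.77, 7.45 and 5.29 in the same order. Only 2 of the 6 genes in COLO-205, 3 of the 9 in DU-145, 2 of the 8 in OVCAR-3 and 2 of the 5 in SKOV-3 lay above that median. The median percentile was 16.7, 46.3, 27.6 and 43.9. MDM2 and TNFRSF10B were above the median in all 4 lists, and RRM2B was above it in DU-145. Ranked instead among all promoter peaks of the list, weaker ones of a gene included, more genes passed the median. In DU-145 CDKN1A, SESN1 and FAS did, at percentiles 55.9, 59.8 and 63.2, and BBC3, PHLDA3 and BAX did not, at 44.8, 6.33 and 5.55. In OVCAR-3 SESN1 and FAS did, at 65.2 and 59.8, and PHLDA3, RRM2B, BBC3 and BAX did not, at 24.8, 21.3, 25.4 and 3.38. No further gene did in COLO-205 or SKOV-3.

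**Figure D1:**
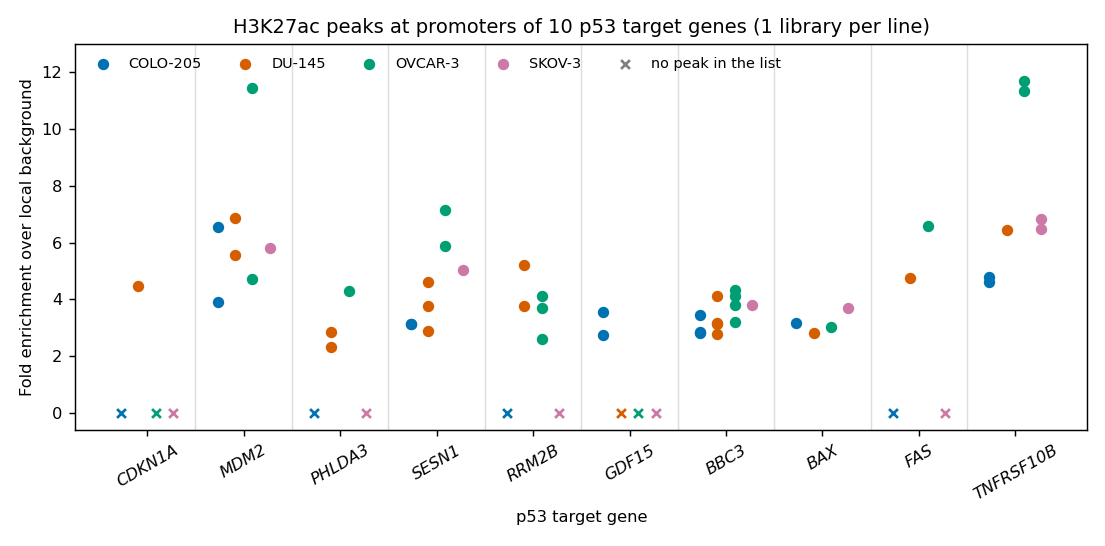
Fold enrichment over local background of the promoter peaks of each gene in the 4 lists, with a cross at 0 where the list holds no promoter peak. The highest values, between 11.3 and 11.7, are the OVCAR-3 peaks of MDM2 and TNFRSF10B, and the BAX peaks lie between 2.80 and 3.68 in all 4 lists.

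**Figure D2:**
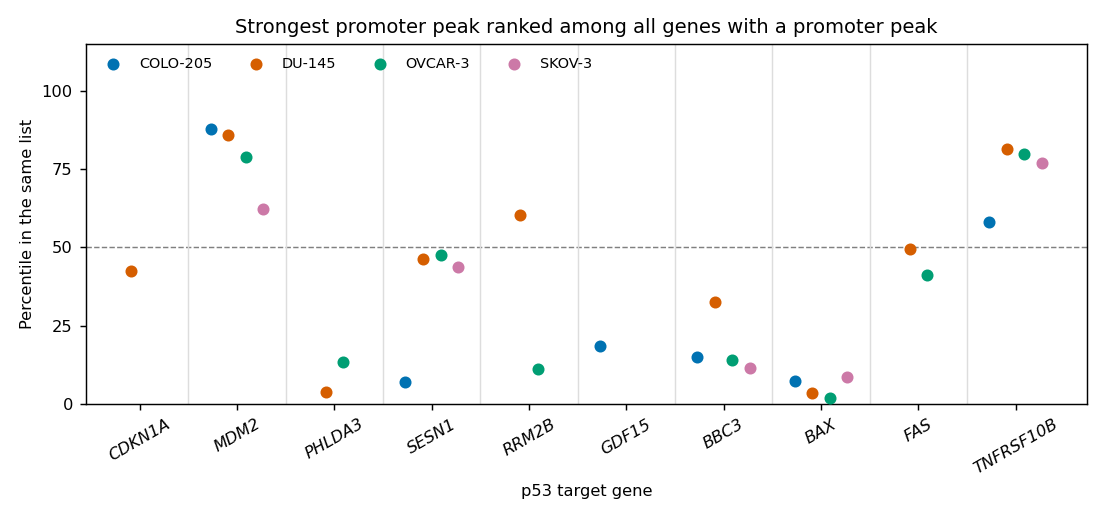
Percentile of the strongest promoter peak of each gene among all protein-coding genes with a promoter peak in the same list, with the dashed line at the median. MDM2 lies between 62.2 and 87.7 and TNFRSF10B between 58.0 and 81.5, whereas BAX lies between 1.81 and 8.69.

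The sequences that p53 is known to bind were searched for in the same regions, with a match defined as 2 consensus half-sites of 10 bases with a spacer of 0 to 1 base, at most 3 mismatches, and the C and G of both cores kept. The p53 consensus is palindromic, so that 1 pass covers both strands, and all sequences are given on the plus strand of hg19 with the 4-base cores in capitals. Over the 10 gene bodies and 50 kb on either side, between 7 matches at FAS and 29 at GDF15 were found per gene, and 8 in all lay inside a peak of at least 1 list. Of these, 5 lay inside peaks of 2 or more lists, and the sequences of 4 of them are given for that reason, namely MDM2 at chr12:69202703-69202722, BAX at chr19:49458470-49458489, FAS at chr10:90751066-90751085 and the distal GDF15 match at chr19:18475797-18475816.
MDM2: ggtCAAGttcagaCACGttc
BAX: gggCAGGcccgggCTTGtcg
FAS: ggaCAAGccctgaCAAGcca
GDF15 distal: ctgCATGtcccggCATGtct

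The MDM2, BAX and FAS matches had 2 mismatches and the GDF15 match had 3. The MDM2 match was intronic, 755 bp past the canonical start, and the BAX match lay over an exon 347 bp past it. The FAS match overlapped an exon 661 bp past the start. The surroundings of the MDM2 and BAX matches are given for context, as chr12:69202663-69202762 and chr19:49458430-49458529.
MDM2 region: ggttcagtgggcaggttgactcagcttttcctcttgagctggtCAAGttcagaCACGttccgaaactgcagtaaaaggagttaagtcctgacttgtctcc
BAX region: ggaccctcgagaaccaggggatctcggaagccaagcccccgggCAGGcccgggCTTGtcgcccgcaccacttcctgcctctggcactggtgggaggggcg

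The BAX match and the fifth match, an intronic one of TNFRSF10B located 400 bp past its canonical start, were inside a promoter peak in all 4 lists. The MDM2 and FAS matches were wholly inside a promoter peak in DU-145 and OVCAR-3. For the MDM2 match, the COLO-205 peak ended inside the element and the SKOV-3 peak ended 21 bp short of it. The other 4 matches inside peaks were all distal and had 3 mismatches each. They were the GDF15 match in COLO-205 and OVCAR-3, 1 near SESN1 and 1 near BAX in DU-145, and 1 within RRM2B in OVCAR-3.

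Of the 10 genes, 6 had a match within 1 kb of the canonical start, against 14.5% of the 19881 canonical starts searched. Windows of 301 bp at the peak summits held a match in 3 of 12 promoter peaks of these genes in COLO-205 and 1 of 17 in DU-145, then 1 of 16 in OVCAR-3 and 2 of 6 in SKOV-3. A window can reach past its peak, and in COLO-205 only 2 matches lay inside a promoter peak. Among all peaks, at promoters and elsewhere, the share of such windows with a match was 3.61%, 4.23%, 4.11% and 2.81% in the same order. The share among the promoter peaks of all genes is not given, so promoter sequence and membership are not separated. At distal peaks of these genes it was 0 of 19, 1 of 79, 1 of 60 and 0 of 10. The genes are known p53 targets, so a match at them is a description of the sequence and does not show a bound site.

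Among the genes of cell cycle arrest, CDKN1A (chr6:36644237-36655114, plus strand of hg19) encodes p21, the inhibitor of cyclin-dependent kinases that mediates the p53-dependent arrest. In DU-145, a peak of 1582 bp covered the canonical start, from 36646474 to 36648055 on chromosome 6, with a fold enrichment of 4.47 and a pileup of 80 tags (63.4 to 99.6). The peak ranked at percentile 42.4 among the strongest promoter peaks of all genes in DU-145. Among all promoter peaks of that list it stood at percentile 55.9. No promoter peak and no distal peak was found in COLO-205, OVCAR-3 or SKOV-3, so that DU-145 was the only list with acetylation called within 50 kb of the gene.

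The nearest peak to the canonical start was 118355 bp away in COLO-205, 83906 bp away in OVCAR-3 and 84008 bp away in SKOV-3. In both ovarian lines it lay at the promoter of SRSF3, with a fold enrichment of 12.9 in OVCAR-3 and 5.26 in SKOV-3. Genes with neither a promoter nor a distal peak made up 14.9% of all genes in COLO-205 and 18.3% in DU-145, then 16.1% in OVCAR-3 and 41.9% in SKOV-3, and 7.02% lacked both in COLO-205, OVCAR-3 and SKOV-3 together. The pattern of CDKN1A, with a promoter peak in DU-145 as well, was held by 74 genes or 0.367%, a combination that was counted after the values of CDKN1A were seen. Peaks were not sparse in the 1 Mb around CDKN1A in OVCAR-3, where they covered 1.69% of the window, at percentile 58.4 of all genes. In COLO-205 they covered 0.219%, at percentile 17.9.

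DU-145 also held 4 distal peaks upstream of CDKN1A, between 31410 and 46144 bp from the gene body, with fold enrichments of 3.06 to 4.85. The strongest of them ran from 36611828 to 36612419. A p53 match with 2 mismatches at chr6:36644226-36644245, 2256 bp upstream of the canonical start, was in no peak of any list, and the DU-145 promoter peak began 2229 bp from it. It was singled out after its values were seen, since it lies at an annotated start of the gene.
CDKN1A upstream: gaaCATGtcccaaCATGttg

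**Figure D3:**
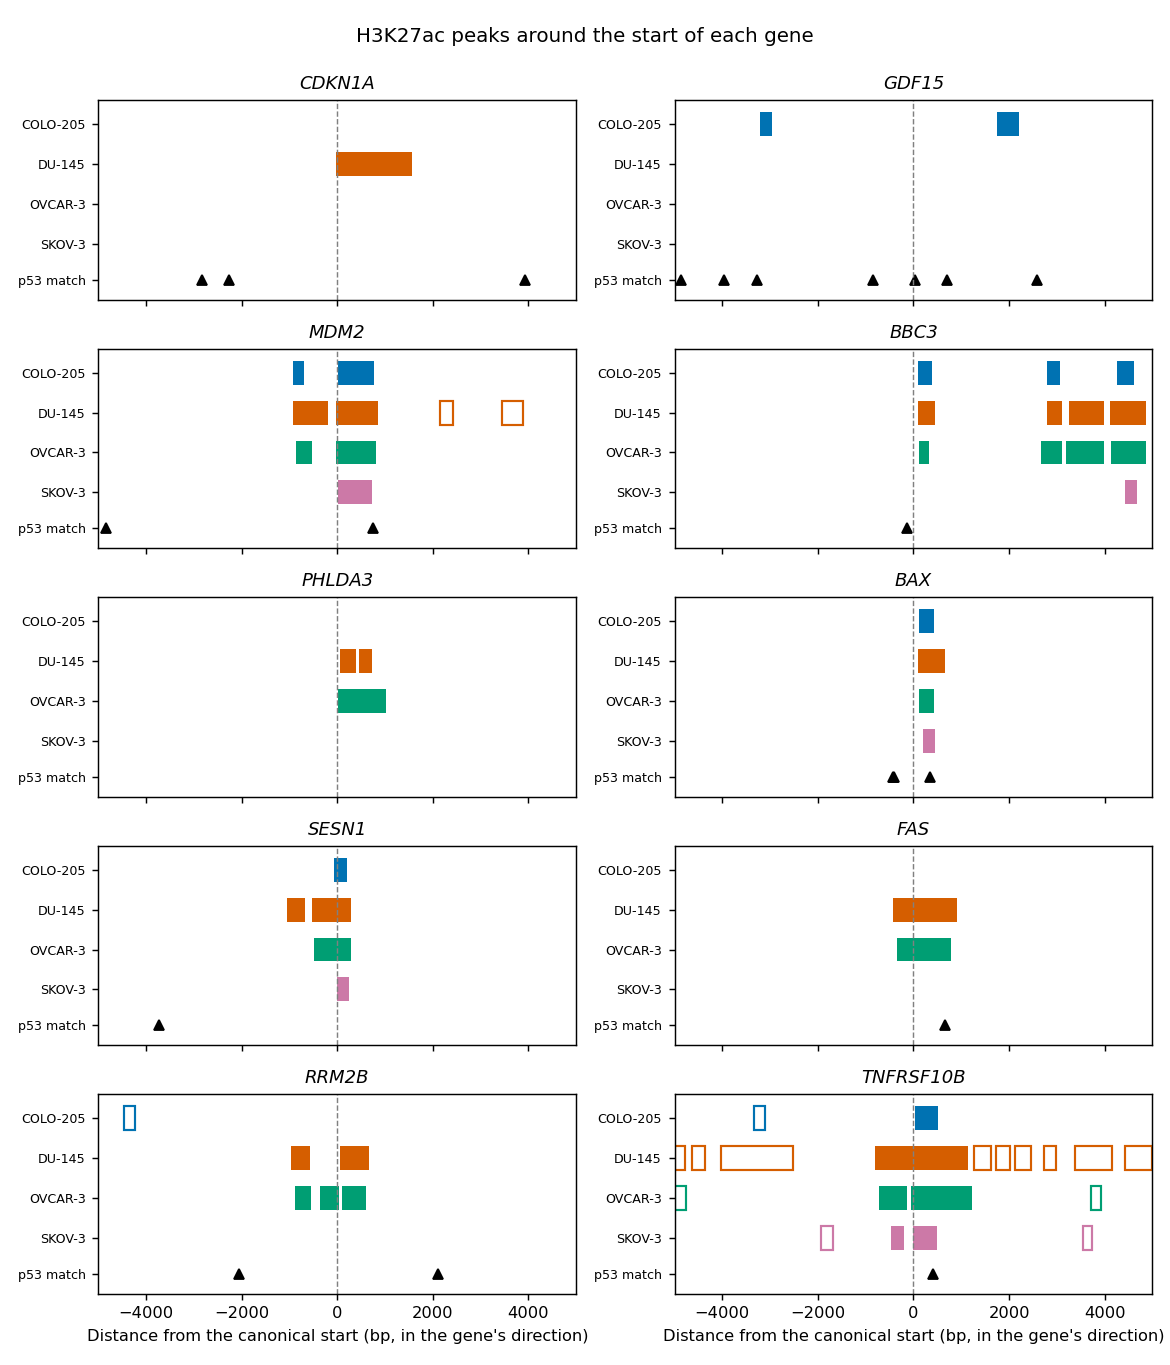
Peaks within 5 kb of the canonical start of each gene in the 4 lists, with distance in bp from the start, filled boxes for promoter peaks, open boxes for distal peaks and triangles for p53 consensus matches. CDKN1A has a box in DU-145 alone, and the BAX match 347 bp and the TNFRSF10B match 400 bp past the start lie inside a box in all 4 lists.

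Among the genes that act back on p53 or its signalling, MDM2 (chr12:69201957-69239324, plus strand of hg19) encodes the ubiquitin ligase that marks p53 for degradation. A peak at or just downstream of the canonical start was found in all 4 lists. Its fold enrichment was 6.54 in COLO-205 and 5.55 in DU-145, then 11.4 in OVCAR-3 and 5.82 in SKOV-3. Its pileup was 73 tags (57.2 to 91.8), 95 tags (76.9 to 116), 146 tags (123 to 172) and 55 tags (41.4 to 71.6) in the same order. A second peak upstream of the start was present in COLO-205, DU-145 and OVCAR-3, with fold enrichments of 3.90, 6.87 and 4.72, and was not listed in SKOV-3. The strongest MDM2 peak ranked at percentiles 87.7, 85.9, 78.8 and 62.2. Distal peaks of MDM2 numbered 8 in DU-145, 1 in OVCAR-3 and none in the others, and the strongest, in DU-145, had a fold enrichment of 5.86.

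PHLDA3 (chr1:201433406-201438365, minus strand of hg19) encodes a protein that inhibits AKT signalling. Its promoter held 2 peaks in DU-145, with fold enrichments of 2.32 and 2.84, and a single peak of 995 bp in OVCAR-3 with a fold enrichment of 4.28. These ranked low, at percentiles 3.82 and 13.4. Distal peaks were more numerous, with 3 in COLO-205 and 13 in DU-145, then 21 in OVCAR-3 and 1 in SKOV-3. A region of 1927 bp past the end of the gene, from 201430422 to 201432348 on chromosome 1, was listed in SKOV-3, OVCAR-3 and DU-145, with fold enrichments of 4.03, 13.5 and 4.05. The OVCAR-3 value there was the highest of any distal peak of the 10 genes. PHLDA3 thus had a distal peak in every list, and a promoter peak in 2 of them. No p53 match of PHLDA3 lay in a peak or within 1 kb of a start.

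Among the genes of stress defence and nucleotide supply, SESN1 (chr6:109305512-109416049, minus strand of hg19) encodes sestrin 1, which limits oxidative stress and mTORC1 signalling. A peak at the canonical start was found in all 4 lists, with fold enrichments of 3.12 in COLO-205 and 4.62 in DU-145, then 7.16 in OVCAR-3 and 5.03 in SKOV-3. This start region is shared with the neighbouring gene CEP57L1, so the acetylation there cannot be assigned to either gene alone. A second start 85291 bp inside the gene had a peak in COLO-205, DU-145 and OVCAR-3, with fold enrichments of 3.14, 2.89 and 5.89, and none in SKOV-3. A p53 match 85819 bp inside the gene, 30 bp from a further annotated start, lay outside these peaks by 102 to 174 bp, and is named after its values were seen. SESN1 had few distal peaks, between 1 and 3 per list, and the strongest was in OVCAR-3 with a fold enrichment of 11.1.

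RRM2B (chr8:103216730-103251189, minus strand of hg19) encodes the p53-inducible small subunit of ribonucleotide reductase, which supplies deoxynucleotides. It had 2 promoter peaks in DU-145, with fold enrichments of 5.19 and 3.75, and 3 in OVCAR-3, with 3.69, 4.12 and 2.60. The strongest ranked at percentile 60.4 in DU-145 and 11.2 in OVCAR-3. The nearest peak to the canonical start was 4238 bp away in COLO-205 and 109786 bp away in SKOV-3. Distal peaks numbered 2, 5, 2 and 0, and the strongest, in DU-145, had a fold enrichment of 5.80.

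GDF15 (chr19:18485541-18499986, plus strand of hg19) encodes a secreted stress cytokine of the TGF-beta family. It had promoter peaks in COLO-205 alone, and both lay away from its canonical start. One, with a fold enrichment of 3.56 and a pileup of 24 tags (15.4 to 35.7), lay 2968 to 3206 bp upstream of the canonical start near an alternative start. The other, with a fold enrichment of 2.74, overlapped the promoter window of another start by only 18 bp. No list held a peak within 1 kb of the canonical start, so the call for GDF15 rests on alternative starts. Its start had the lowest ratio of observed to expected CpG among the 10 genes, 0.447, against a median of 0.725 over all genes.

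Distal peaks of GDF15 were present in all 4 lists, numbering 4, 3, 5 and 1. The region from 18475054 to 18475858 on chromosome 19, inside PGPEP1, held the p53 match shown above and had a fold enrichment of 4.01 in COLO-205 and 6.56 in OVCAR-3. The region at the promoter of SSBP4 was listed in all 4 lines, with fold enrichments between 3.13 and 3.79. Of 29 p53 matches around GDF15, 7 lay within 1 kb of an annotated start and were in no peak.

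Among the genes of mitochondrial apoptosis, BBC3 (chr19:47724079-47736023, minus strand of hg19) encodes PUMA, which binds and neutralises the anti-apoptotic BCL2 proteins. It had 3 promoter peaks in COLO-205 and 4 in DU-145, then 4 in OVCAR-3 and 1 in SKOV-3. A peak just downstream of the canonical start had a fold enrichment of 3.44 in COLO-205, 2.77 in DU-145 and 3.20 in OVCAR-3, and was not listed in SKOV-3. The other peaks lay around a start 4010 bp inside the gene, and the SKOV-3 peak there had a fold enrichment of 3.79. The SKOV-3 promoter peak of BBC3 is therefore at the inner start only. The strongest peak ranked at percentiles 14.8, 32.5, 13.9 and 11.5. A p53 match with 3 mismatches, 130 bp upstream of the canonical start, lay 206 to 240 bp from the peaks of COLO-205, DU-145 and OVCAR-3, and is named after its values were seen. The strongest distal peak of BBC3 was at the promoter of INAFM1 in OVCAR-3, with a fold enrichment of 8.68.

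BAX (chr19:49458072-49465055, plus strand of hg19) encodes the effector that permeabilises the outer mitochondrial membrane. It had a single promoter peak in each list, with fold enrichments of 3.15, 2.80, 3.04 and 3.68. The pileups were 50 tags (37.1 to 65.9), 63 tags (48.4 to 80.6), 53 tags (39.7 to 69.3) and 36 tags (25.2 to 49.8). The peak ranked low in each list, at percentiles 7.42, 3.45, 1.81 and 8.69 among the strongest promoter peaks of all genes. All 4 peaks began 105 to 189 bp past the canonical start and held the match shown above. Distal peaks numbered 5, 8, 4 and 0, and 6 of the 8 in DU-145 and all 4 in OVCAR-3 lay at promoters of other genes. The strongest, in DU-145, was at the promoters of GYS1 and RUVBL2 with a fold enrichment of 5.15.

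Among the death receptors, FAS (chr10:90750414-90775542, plus strand of hg19) encodes the receptor of FAS ligand that triggers the extrinsic pathway. Its promoter held a peak of 1355 bp in DU-145 with a fold enrichment of 4.75 and a pileup of 63 tags (48.4 to 80.6). In OVCAR-3 the peak was 1143 bp wide, with a fold enrichment of 6.59 and a pileup of 75 tags (59.0 to 94.0). Both held the match shown above, and both also lay at a start of ACTA2, the smooth muscle actin gene, so the acetylation cannot be assigned to FAS alone. They ranked at percentiles 49.5 and 41.3 among the strongest promoter peaks of all genes. Neither COLO-205 nor SKOV-3 had a promoter or distal peak.

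The nearest peak to FAS was 109608 bp away in COLO-205, at the promoter of STAMBPL1. In SKOV-3 it was 1126685 bp away, and no SKOV-3 peak lay within 500 kb of the FAS start. The latter held for 11.6% of all genes. OVCAR-3 alone had distal peaks of FAS, 3 in number, the strongest with a fold enrichment of 5.32.

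TNFRSF10B (chr8:22877646-22926544, minus strand of hg19) encodes DR5, a receptor of the ligand TRAIL. It had a peak over or next to the canonical start in all 4 lists, with fold enrichments of 4.60 in COLO-205 and 6.43 in DU-145, then 11.3 in OVCAR-3 and 6.49 in SKOV-3. In DU-145 the peak was 1956 bp wide with a pileup of 99 tags (80.5 to 121), and the OVCAR-3 peak had a pileup of 141 tags (119 to 166). A separate upstream peak was listed in OVCAR-3 and SKOV-3, with fold enrichments of 11.7 and 6.82. COLO-205 had a further peak near a start 38159 bp inside the gene, with a fold enrichment of 4.79. The strongest peak ranked at percentiles 58.0, 81.5, 79.9 and 76.9.

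TNFRSF10B also had the most distal peaks of the 10 genes in DU-145 and SKOV-3, with 32 and 5, together with 2 in COLO-205 and 13 in OVCAR-3. Its count stood at percentiles 32.4, 96.1, 84.8 and 92.7 of all genes. The 1 Mb around its start was densely covered in DU-145, where 183 peaks took up 12.6% of it, at percentile 97.5, and in SKOV-3, where 33 peaks took up 1.25%, at percentile 93.9. Copy number was not analysed here, and its part in either density was not tested. A region from 22931293 to 22932794 on chromosome 8, upstream of the start, was listed in SKOV-3, OVCAR-3 and DU-145 with fold enrichments of 7.42, 10.1 and 7.89. The strongest distal peak, with a fold enrichment of 12.7 in OVCAR-3, was at the promoter of RHOBTB2.

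Over all 10 genes, the distal peaks numbered 19 in COLO-205 and 79 in DU-145, then 60 in OVCAR-3 and 10 in SKOV-3. Among the 14001 most significant peaks of each list they numbered 2, 14, 8 and 10, so that the order of the lines changed and SKOV-3 passed COLO-205 and OVCAR-3. Genes with at least 1 distal peak numbered 7, 9, 9 and 5 of 10, against 80.9%, 75.2%, 76.4% and 46.8% of all genes. The median per gene was 2, 5, 3.5 and 0.5, where the median over all genes was 3, 4, 3 and 0. The number of distal peaks therefore lay near that of other genes. TNFRSF10B and PHLDA3 together accounted for 45 of the 79 in DU-145 and 34 of the 60 in OVCAR-3.

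Joined across the lists, the distal peaks formed 122 regions, of which 92 were in 1 list, 21 in 2, 7 in 3 and 2 in all 4. DU-145 alone held 50 of the 92 and OVCAR-3 alone held 31. The 2 regions in all 4 lists were at promoters of other genes, SSBP4 and INAFM1. Of the 95 regions away from other promoters, 3 were in 3 lists and none was in all 4. TNFRSF10B and PHLDA3 gave 37 and 25 of the 122 regions. No region count over all genes is given here, so these counts cannot be read as a trait of the 10 genes. Promoter peaks of the 10 genes that overlapped a peak of another list were 9 of 12 in COLO-205 and 15 of 17 in DU-145, then 15 of 16 in OVCAR-3 and 6 of 6 in SKOV-3. Among the promoter peaks of all protein-coding genes 63.5%, 68.0%, 72.9% and 96.5% did so, so that most promoter peaks were shared in general. For distal peaks of the 10 genes, which include those at promoters of other genes, the counts were 10 of 19, 29 of 79, 29 of 60 and 8 of 10. Of all peaks, promoter peaks included, 25.2%, 37.7%, 40.7% and 82.7% were shared. Of the peaks at no protein-coding promoter, 15.9%, 25.8%, 28.6% and 66.0% were.

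**Figure D4:**
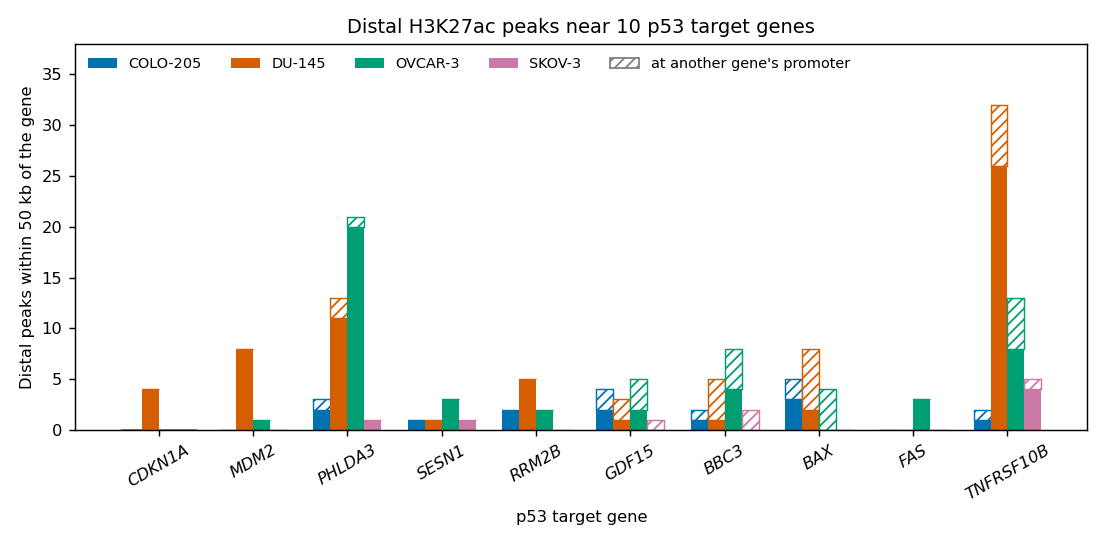
Number of distal peaks within 50 kb of each gene body in the 4 lists, with the hatched part of each bar at the promoter of another protein-coding gene. TNFRSF10B has 32 in DU-145 and PHLDA3 has 21 in OVCAR-3, whereas FAS has 3 in OVCAR-3 and none in the other lists.

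Beyond the 10 genes, 26 other p53 targets were examined in the same way. A promoter peak was found at 17 of them in COLO-205 and 22 in DU-145, then 21 in OVCAR-3 and 9 in SKOV-3, and 9 had one in all 4 lists. Those counts stand beside the shares of all genes given above, 51.1%, 59.8%, 60.5% and 31.6%, and 25.2% for all 4 lists. The 6 targets PPM1D, FDXR, PERP, TNFRSF10A, CD82 and TRIAP1 lacked one in SKOV-3 alone. TP53INP1, BTG2, TP53I3, ZMAT3, XPC and POLH had one in DU-145 and OVCAR-3 and in neither other list, as PHLDA3, RRM2B and FAS did. Among all genes with a promoter peak in DU-145 and none in COLO-205 and SKOV-3, 69.6% also had one in OVCAR-3, and CDKN1A was not among them. TIGAR had a peak in COLO-205 and DU-145, TP53AIP1 had one in COLO-205 alone, and TNFRSF10C and SPATA18 had none in any list.

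Of 10 regulators and relatives of p53, 8 had a promoter peak in COLO-205, DU-145 and OVCAR-3 and 5 in SKOV-3, beside 51.1%, 59.8%, 60.5% and 31.6% of all genes. CDKN2A, which encodes the MDM2 inhibitor ARF and the cell cycle inhibitor p16, ranked highest of the wider list, with fold enrichments of 11.4, 11.6 and 41.7 in COLO-205, DU-145 and OVCAR-3 and no peak in SKOV-3. USP7, a deubiquitinase of MDM2 and p53, and CHEK2, a DNA damage kinase, had a promoter peak in all 4 lists and followed, with median percentiles of 84.1 and 79.2. ATM had a peak in DU-145 alone, TP73 had one in COLO-205 and OVCAR-3, and TP63 had none.

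A promoter peak in exactly 1 list was found for 15.4% of all genes, with 4.63% in OVCAR-3 alone and 0.283% in SKOV-3 alone. None of the 10 genes had its only promoter peak in OVCAR-3 or SKOV-3. With each list cut to its 14001 peaks of highest significance, the number in SKOV-3, CDKN1A kept its promoter peak in DU-145 and FAS kept its peaks in DU-145 and OVCAR-3. MDM2 and TNFRSF10B kept theirs in all 4 lists. BAX lost its promoter peak in COLO-205, DU-145 and OVCAR-3, and PHLDA3 lost it in DU-145 and OVCAR-3. SESN1, GDF15 and BBC3 lost theirs in COLO-205, and BBC3 and RRM2B lost theirs in OVCAR-3. The presence of BAX, SESN1 and BBC3 in all 4 lists, and of PHLDA3 and RRM2B in both DU-145 and OVCAR-3, thus rests on peaks below that rank.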

How the data were processed

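H3K27ac ChIP-seq was performed on 1 library per line, from 4 lines. The authors mapped reads to hg19 with Bowtie2 2.1.0 and called peaks per library with MACS2 2.1.0.20150603 at a q-value below 0.001. The deposited columns hold −log10 q, −log10 p, a whole-number score of 10 times the former, and a ratio over local background (fold enrichment). The stated merging of peaks closer than 350 bp is not applied in the deposited lists.

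Summit pileups were solved from fold enrichment and −log10 p with a tolerance of 0.001, which succeeded for between 99.9% and 100% of summits per library and was tested on simulated data. Tag totals were estimated from the lowest background solved in each list. They assume 2.7e+09 genome positions and a fragment length equal to the narrowest peak of the list. Genes and starts came from GENCODE lifted to GRCh37, with the Ensembl canonical start, or for FAS the first protein-coding start. CpG ratios used 1001 bp around the start. Genes named were all 10 members, wider-list genes lacking a promoter peak in a list, the 3 ranked highest, matches inside peaks with fewest mismatches, and distal peaks that hold such a match or are strongest for a gene. Members and lists were chosen with earlier results of these data known. Scripts used pandas 2.3.3, pysam 0.24.0, scipy 1.17.1, numpy 2.4.6 and matplotlib 3.10.9 under Python 3.11.15. RNA-seq and other lines were not analysed here. Some genes that this rule would name are not reported here.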

Additional observations from a re-analysis of the deposited data

How the results depend on the processing

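Of 104 recomputed values, 72 stayed within 1.5 times the reported one and 32 did not. With −log10 q of at least 10, genes with a promoter peak numbered 2 in COLO-205 and 3 in SKOV-3, against 31.7% and 22.2% of all genes, distal peaks 4, 33, 38 and 2 in the order of the report, genes with a distal peak 4 in COLO-205 and 2 in SKOV-3, and p53 matches in peaks 1 in COLO-205 and 1 in SKOV-3. With the 14001 most significant peaks of each list, genes with a promoter peak numbered 2 in COLO-205 and 4 in OVCAR-3, against 21.8% and 37.9% of all genes, distal peaks 2, 14 and 8 and genes with one 2, 4 and 4 in COLO-205, DU-145 and OVCAR-3. With a distance of 20 kb, distal peaks numbered 8, 46, 24 and 5, and genes with one 5 in DU-145 and 2 in SKOV-3. With 100 kb, distal peaks numbered 50, 144, 101 and 23, and genes with one 8 in SKOV-3. Without peaks at other promoters, distal peaks numbered 12 in COLO-205 and 6 in SKOV-3, and genes with one 3 in SKOV-3. The cause was not tested, beyond the fewer or more peaks that each setting keeps by construction. GDF15 lost its COLO-205 promoter peak, its only one, with a window of 500 bp, and BBC3 lost its SKOV-3 peak with protein-coding transcripts only. Both were also lost with the canonical start alone, a setting chosen after seeing the data. At a −log10 q of at least 10, BBC3 and BAX lost their peak in SKOV-3, and SESN1, GDF15, BBC3 and BAX lost theirs in COLO-205.

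No paired analysis was possible because each line has 1 library and no value comes from a test. Leaving out a replicate was not possible for the same reason. A peak missing from a list is one below the threshold of that list, and SKOV-3 had the fewest peaks and the lowest estimated tag total.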
